A study of Mus musculus with 4 samples.

Results

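*Fgf21*, *Gdf15*, *Klb* and *Fgfr1* encode a pair of secreted stress hormones and the co-receptor and receptor through which the first of them acts. They were found on the array by gene name among probes that are not controls, which gave 4 genes with 6 probes of 29676 gene names with 39429 probes. *Fgf21*, *Gdf15* and *Klb* had 1 probe each and *Fgfr1* had 3. Each probe was printed once per array. The set was chosen by the signals of these probes in untreated AECs and after OGD, so the members' values are given as a description and no p-value is attached to them.

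Expression was compared between untreated AECs and AECs after 15 h of OGD, with 2 arrays in each group. AECs, astrocyte-enriched cultures, are mixed glial cultures of newborn ICR mouse cortex, prepared from several pups and stripped of meninges, in which microglia were depleted with PLX3397, an inhibitor of the CSF1 receptor. All 4 samples shared this preparation, so that no group represents purified astrocytes. OGD, oxygen–glucose deprivation, combined medium without glucose with hypoxia in a sealed pouch and serves as a culture model of ischemia. According to the methods, wells held independent cultures from different pups, while the labels only number the 2 samples of a group. The signal was an intensity in a single color, and it is given below as processed signal and as normalized log2 signal, which is log2 of the processed signal minus the 75th percentile of the same array.

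FGF21 is an endocrine member of the fibroblast growth factor family, best known as a hormone of liver and fat in fasting. It binds FGF receptor 1 only weakly by itself, and the membrane protein beta-klotho, encoded by *Klb*, is needed to form the signaling complex. GDF15 is a distant member of the TGF-beta superfamily that acts in the hindbrain through GFRAL, a receptor that signals together with RET. Both hormones are known targets of the integrated stress response, in which kinases that sense lack of amino acids, unfolded proteins or mitochondrial damage phosphorylate eIF2alpha and thereby raise the translation of the transcription factor ATF4.

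The promoters of the hormone genes are shown because ATF4 acts at a composite sequence, the C/EBP-ATF response element, that can be looked for by its letters. RefSeq windows of the 250 bases before the annotated start (GRCm38.p6, both genes on the minus strand) were searched on both strands for TGATGNAA (C/EBP-ATF response element), for ACGTG and GCGTG (core of the hypoxia response element), for CACGTG (E-box, which contains ACGTG) and for CCAAT. Capitals mark the matches, and RefSeq gives 2 starts for *Gdf15*.
Fgf21 at chr7:45615491-45615740: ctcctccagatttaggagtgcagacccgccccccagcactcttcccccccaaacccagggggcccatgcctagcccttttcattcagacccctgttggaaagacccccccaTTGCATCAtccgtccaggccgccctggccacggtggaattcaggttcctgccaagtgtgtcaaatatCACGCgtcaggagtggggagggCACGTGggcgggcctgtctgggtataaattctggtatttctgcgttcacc
Gdf15, first start, at chr8:70632457-70632706: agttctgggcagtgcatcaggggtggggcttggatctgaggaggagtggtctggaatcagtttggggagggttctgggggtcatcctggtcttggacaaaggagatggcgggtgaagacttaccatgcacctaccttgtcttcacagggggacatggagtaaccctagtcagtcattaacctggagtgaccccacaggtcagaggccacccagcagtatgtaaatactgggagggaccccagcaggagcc
Gdf15, second start, at chr8:70632096-70632345: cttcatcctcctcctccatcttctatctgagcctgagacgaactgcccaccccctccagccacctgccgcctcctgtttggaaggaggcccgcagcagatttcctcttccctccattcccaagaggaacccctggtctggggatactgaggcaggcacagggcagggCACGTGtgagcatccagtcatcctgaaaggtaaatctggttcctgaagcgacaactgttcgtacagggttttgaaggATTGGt
The *Fgf21* window held 1 C/EBP-ATF match, read on the opposite strand as TTGCATCA from 139 bases before the start. It also held a hypoxia core at 72 bases and an E-box at 50 bases before the start. In *Gdf15*, the window of the first start held none of the 4 motifs, and that of the second start held an E-box at 83 bases and a CCAAT box at 6 bases before the start. Among 32851 windows of all genes, 3.45% held the C/EBP-ATF letters, 38.6% a hypoxia core, 6.02% the E-box and 33.8% the CCAAT box. The *Klb* window (chr5:65348161-65348410, plus strand) held a hypoxia core at 116 bases before the start and none of the other 3 motifs. These are matches of letters, and binding was not measured.

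Across the series, the probes of the spiked-in control RNA differed by −0.085 on the log2 scale between the groups, while the 75th percentile fell from processed signals of 2135 and 2164 in untreated AECs to 887 and 776 after OGD. Scaling on the spiked-in controls therefore moves every log2 difference by −1.29. A group whose 2 arrays were both marked as well above background made a probe eligible, and of 28163 such probes 65.1% passed an adjusted p under 0.05 in limma, 38.0% higher and 27.1% lower after OGD. With the additional limit of 10-fold that the study used, 0.813% were higher and 0.526% lower. The median log2 difference of all these probes was 0.18. Replicate arrays correlated across probes with r = 0.998 in untreated AECs and r = 0.995 after OGD, values that describe probes and not independent samples. All 10 astrocyte markers were marked as well above background on each of the 4 arrays. Their summed level relative to the 75th percentile ranged from 142 to 162 in untreated AECs and from 226 to 231 after OGD.

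*Fgf21* was not detected above background in untreated AECs and was detected after OGD. Its probe, A_52_P235347 for NM_020013, lies on mm9 at chr7:52869305-52869364, minus strand, near position 842 of the transcript. In untreated AECs the processed signals were 1.55 and 1.38, both of them surrogates that the software had put in place of values at background. After OGD they were 150 and 124. The probe was thus marked as well above background on both arrays after OGD and on neither untreated array, and the groups did not overlap.

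Before background subtraction, the mean signal of the *Fgf21* spot was 41.9 and 38.3 in untreated AECs and 203 and 169 after OGD. On the same arrays, 153 negative control spots had a median of 40.1 and 39.2 in untreated AECs and of 34.3 and 34.4 after OGD. In untreated AECs, 78.4% and 24.8% of the negative control spots were dimmer than the *Fgf21* spot, which places it within their range. After OGD, 100% of them were dimmer on both arrays, and the brightest reached 47.1 and 44.5.

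The normalized log2 signal of *Fgf21* after OGD was −2.56 and −2.64, with a mean of −2.60 ± 0.057 (SD, n = 2). Since no untreated level was measured, only a lower bound of the change can be given. On each untreated array the dimmest probe that still counted as well above background, at 7.34 and 6.33, was taken as the floor, and against it *Fgf21* was at least 51.9-fold higher after OGD. With scaling on the spiked-in controls, the bound was at least 21.2-fold.

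*Gdf15* was already expressed in untreated AECs and was higher after OGD. Its probe, A_55_P1960735 for NM_011819, lies on mm9 at chr8:73153293-73153352, minus strand, near position 1484 of the transcript. Untreated AECs had processed signals of 2918 and 2861, and AECs after OGD had 13739 and 12003. Both arrays after OGD lay far above both untreated arrays, and the probe was well above background on all 4.

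On the normalized log2 scale *Gdf15* was at 0.45 and 0.40 in untreated AECs and at 3.95 and 3.95 after OGD, with means of 0.43 ± 0.034 and 3.95 ± 0.0021 (SD, n = 2 each). The log2 difference was 3.53 with a standard error of 0.076 from the fit across all probes, or 11.5-fold. Of all probes tested, 0.653% had a larger increase. The increase was present under each scaling, but it was under 10-fold with quantile normalization (9.44-fold) and with the spiked-in controls (4.71-fold), the second of which is close to the ratio of the processed signals themselves, 4.44. The size of the *Gdf15* difference thus depended on how arrays were set to a common level, while its direction did not.

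**Figure D1:**
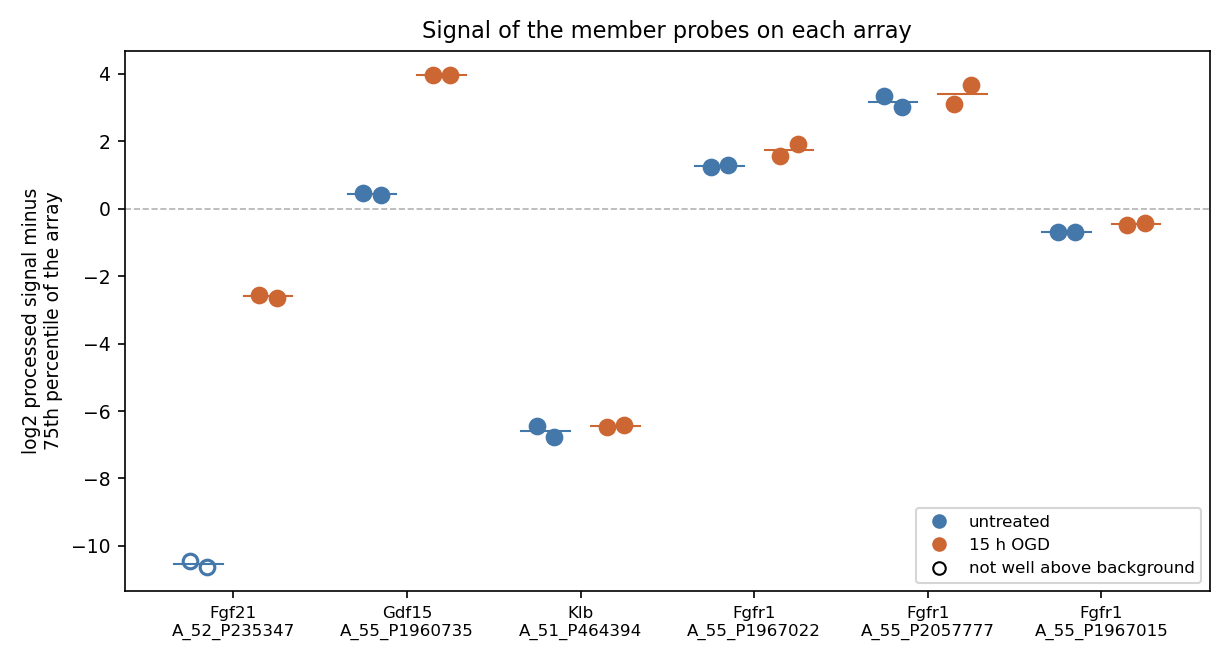
Normalized log2 signal (log2 of the processed signal minus the 75th percentile of the array) of the 6 probes on each array, with untreated AECs in blue and AECs after 15 h of OGD in orange. Bars are group means of 2 arrays, and open circles mark spots not well above background. Both hormone probes are separated between groups, from 0.43 to 3.95 for Gdf15, whereas the Klb probe and the second Fgfr1 probe overlap.

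*Klb*, the co-receptor that gives FGF21 its target cells, was at a low signal in both groups. Its probe, A_51_P464394 for NM_031180, lies on mm9 at chr5:65774926-65774985, plus strand. Processed signals were 24.7 and 19.9 in untreated AECs and 9.90 and 9.17 after OGD, where the dimmest probes that counted as well above background had 6.33 and 7.0. The probe was marked as well above background on all 4 arrays, although after OGD its signal was close to the lowest that received this mark.

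Normalized, *Klb* was at −6.44 and −6.77 in untreated AECs and at −6.49 and −6.40 after OGD, so that the groups overlapped. The log2 difference was 0.16 with a standard error of 0.14, and it turned to −1.13 with scaling on the spiked-in controls, to 1.05 with normexp background correction and to −0.0097 without untreated replicate 2. No direction of *Klb* was therefore common to all settings. Mean signals of the *Klb* spot before subtraction were 70.1 and 60.8 in untreated AECs and 45.7 and 46.2 after OGD, brighter than at least 99.3% of the negative control spots on each array.

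*Fgfr1*, the receptor tyrosine kinase that carries the signal of FGF21 and of many paracrine FGFs, was well above background on all 4 arrays with each of its 3 probes. All belong to NM_010206 and lie on mm9 chromosome 8, plus strand, in the last part of the transcript. The first probe, A_55_P1967022 (chr8:26684061-26684120), had processed signals of 5059 and 5304 in untreated AECs and 2629 and 2907 after OGD. With normalized log2 signals of 1.24 and 1.29 against 1.57 and 1.90, its log2 difference was 0.47 with a standard error of 0.14. The groups did not overlap on this probe, and the arrays after OGD were the lower ones in processed signal and the higher ones after normalization.

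The second *Fgfr1* probe, A_55_P2057777 (chr8:26685072-26685131), had processed signals of 21610 and 17362 in untreated AECs and 7624 and 9910 after OGD. Normalized, it was at 3.34 and 3.0 against 3.10 and 3.67, which overlap, with a log2 difference of 0.22 and a standard error of 0.25. The third probe, A_55_P1967015 (chr8:26685820-26685879), had processed signals of 1328 and 1345 against 637 and 580, normalized values of −0.68 and −0.69 against −0.48 and −0.42, and a log2 difference of 0.24 with a standard error of 0.077. The groups did not overlap on the third probe. All 3 differences were small and positive relative to the 75th percentile, and they turned to −0.82, −1.07 and −1.05 with the spiked-in controls. Quantile normalization also turned the second probe, to −0.23.

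**Figure D2:**
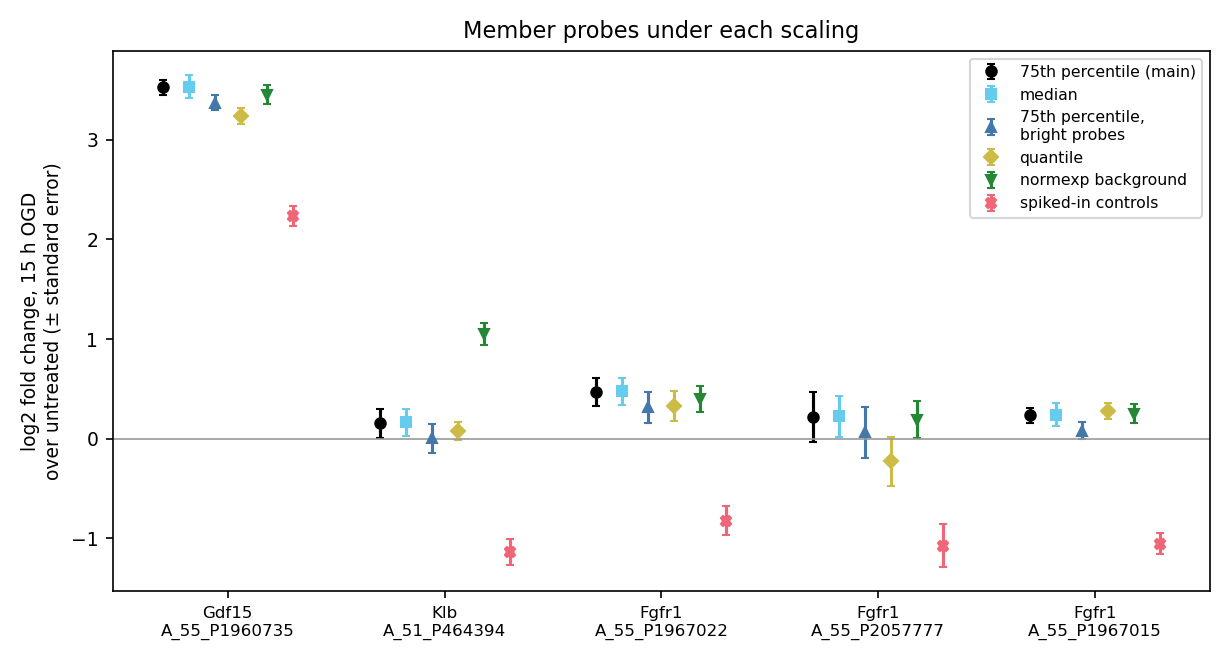
Log2 fold change of the Gdf15, Klb and Fgfr1 probes, after 15 h of OGD over untreated, under 6 ways of processing the same 4 arrays, with standard errors as bars (n = 2 per group). Gdf15 stays above 0 throughout, from 2.24 to 3.53, while Klb reaches 1.05 with normexp and −1.13 with the spiked-in controls. The Fgfr1 probes lie within 0.47 of 0 under the other 5 and fall below it with the spiked-in controls. Fgf21 is left out because its untreated level is not measured.

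Of the 6 probes, 2 (*Fgf21* and *Gdf15*) were higher past both limits, beside 0.813% of all probes. This count rests on values that were known when the genes were chosen. The plot of all probes shows where the values of the 4 genes lie.

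**Figure D3:**
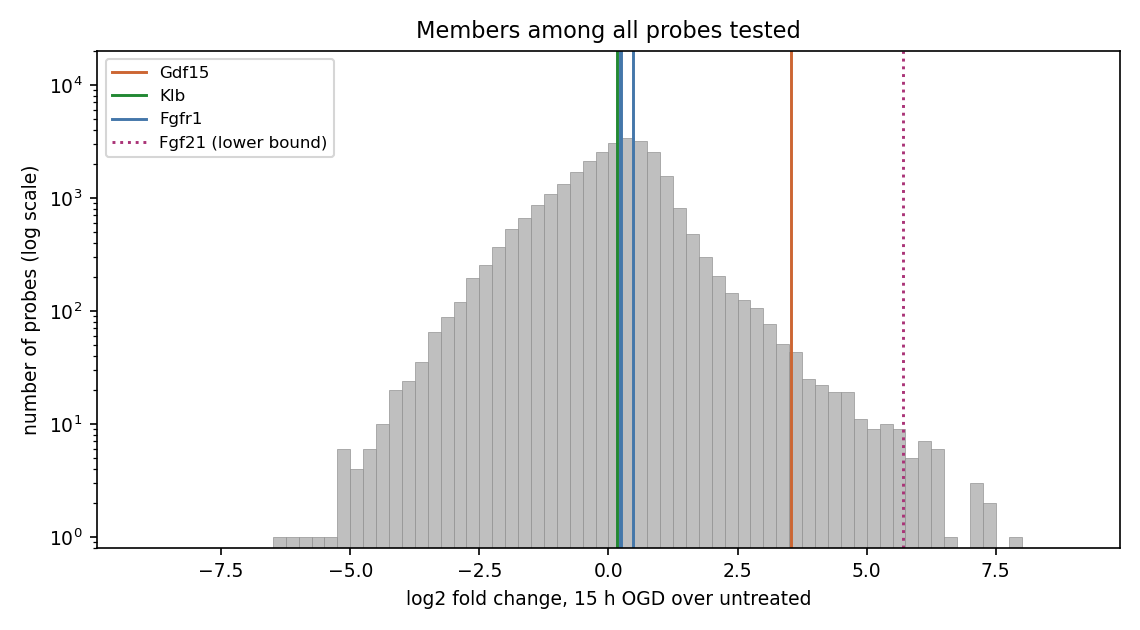
Number of probes (log scale) by log2 fold change, after 15 h of OGD over untreated, for the 28163 probes tested, in grey. Lines mark Gdf15 at 3.53, Klb at 0.16 and the Fgfr1 probes at 0.22, 0.24 and 0.47, and the dotted line marks the lower bound of Fgf21 at 5.70.

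The remaining members of the hormone systems, that is the other endocrine FGFs, the other receptors and the receptors of GDF15, were mostly small in their differences. A gene stood by its brightest probe here and below. Of 9 such genes, 7 were tested, of which 2 rose, 2 fell and 3 did not pass an adjusted p under 0.05, where 37.1% of 21009 genes rose and 27.9% fell. *Fgfr2* rose by 1.55 (SE 0.13) on the log2 scale and *Fgf15*, the mouse counterpart of FGF19, by 0.73 (SE 0.11), although *Fgf15* turned to −0.55 with the spiked-in controls. *Fgfr3* and *Fgfr4* had log2 differences of −0.54 (SE 0.096) and −1.05 (SE 0.14), the latter −0.38 as the mean of its 2 probes. With the spiked-in controls 6 of the 7 genes fell, as did 83.4% of all genes, and *Fgfr2* was at 0.26. Without untreated replicate 1 only 1 rose and 1 fell, without untreated replicate 2 only 1 fell, and neither fall passed in the methods' t-test.

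Of the GDF15 receptor complex, *Gfral* was not well above background on any array, with processed signals between 1.32 and 2.84. *Ret*, its signaling partner, was well above background on all 4 arrays, with processed signals of 74.7 and 94.6 in untreated AECs and 31.7 and 15.1 after OGD. Its log2 difference of −0.57 had a standard error of 0.35 and did not pass the test. Normalized, *Ret* was at −4.84 and −4.52 in untreated AECs and at −4.81 and −5.69 after OGD. *Kl*, which encodes the co-receptor for FGF23, was not well above background on any array either.

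Genes of the integrated stress response, the pathway upstream of both hormones, were mostly higher. Of 15 regulators, 10 (66.7%) rose, 1 (6.67%) fell and 4 did not pass, beside 37.1% of all genes that rose and 27.9% that fell. Their median log2 difference was 1.76, beside 0.16 for all genes tested. *Trib3*, a pseudokinase that restrains ATF4, rose by 4.36 (SE 0.079, 20.5-fold) and the transcription factor *Atf3* by 3.75 (SE 0.090, 13.4-fold), past both limits, which 0.709% of genes passed upward. *Ppp1r15a*, the inducible phosphatase subunit that restores translation, rose by 3.20 (SE 0.096), and *Cebpb*, *Ddit3* and *Ppp1r15b* rose by between 2.77 and 2.81.

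*Atf4* itself rose by 2.00 (SE 0.076), or by 1.08 with quantile normalization, from normalized log2 signals of 5.21 and 5.21 to 7.19 and 7.24. The exception was *Eif2ak2*, the kinase that senses double-stranded RNA, at −2.43 (SE 0.098). The genes of the other kinases of eIF2alpha, *Eif2ak1*, *Eif2ak3* and *Eif2ak4*, had log2 differences of 0.18, −0.33 and −0.50 and did not pass the test, and *Eif2ak4* turned to 0.86 as the mean of its 3 probes. With the spiked-in controls, 8 of the 15 regulators rose and 7 fell, beside 3.85% and 83.4% of all genes.

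ATF4 target genes other than the hormones gave the most uniform count. Of 20, 19 (95%) rose and 1 (5%) fell, beside 37.1% and 27.9% of all genes, with a median log2 difference of 1.43. *Chac1*, which degrades glutathione, rose by 4.51 (SE 0.084, 22.8-fold) and *Mthfd2*, a mitochondrial enzyme of one-carbon metabolism, by 3.34 (SE 0.089, 10.1-fold). *Vldlr*, *Slc7a3*, *Stc2* and *Cth* followed with between 1.94 and 2.89. *Slc7a11*, the cystine transporter, was the gene that fell, at −1.36 (SE 0.12), but its difference was −0.029 with normexp background correction.

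Relative to the spiked-in controls 7 of the ATF4 targets rose and 7 fell, beside 3.85% and 83.4% of all genes. Their median was 0.14, beside −1.13 for all genes. *Chac1*, *Mthfd2*, *Vldlr*, *Slc7a3*, *Stc2* and *Cth* remained positive there, between 0.65 and 3.22. Of 16 of these targets with a RefSeq window, 5 (31.2%) held the C/EBP-ATF letters shown above for *Fgf21*, namely *Asns*, *Chac1*, *Pck2*, *Slc7a11* and *Vldlr*, beside 3.91% of all 27025 genes with a window. The gene that fell was thus among those that held the letters. Of the same 16 targets, 11 (68.8%) held a CCAAT box and 10 (62.5%) a hypoxia core, beside 37.5% and 41.5% of all genes. The E-box was held by 1 (6.25%), beside 6.86%. The list was made of known ATF4 targets.

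Other transcription factors known to act on *Fgf21* or *Gdf15* had counts close to those of all genes. Of 14, 5 (35.7%) rose, 5 (35.7%) were lower and 4 did not pass, beside 37.1% and 27.9% of all genes, with a median of 0.17. With the mean over a gene's probes 3 rose, and with the spiked-in controls 2 rose and 10 were lower, beside 3.85% and 83.4% of all genes. *Pparg* rose by 2.64 (SE 0.077) and *Rora* by 1.59 (SE 0.076), but by 0.33 as the mean of its 2 probes, while *Ppara*, the main activator of *Fgf21* in fasting liver, had −2.11 (SE 0.082), or −1.04 with normexp and −1.61 as the mean of its 3 probes. *Thrb* fell by 1.51 (SE 0.11). *Trp53*, which encodes the p53 protein that acts on *Gdf15*, had a log2 difference of −0.23 and did not pass the test. *Nr1h4*, counted among the 5 that were lower, was not well above background on either array after OGD. Against a floor made as for *Fgf21*, but on the arrays after OGD, no fall of *Nr1h4* was measurable, and no fold is given for it.

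Genes of mitochondrial stress (chaperones, proteases, prohibitins and the stress relay *Dele1*) rose in 7 (53.8%) of 13 cases and fell in 3 (23.1%), with a median of 0.48. All genes stood at 37.1% and 27.9%. With quantile normalization 3 rose and 3 fell (median 0.060), beside 28.5% and 31.2% of all genes. With the spiked-in controls 12 fell (median −0.81), as did 83.4% of all genes. Without untreated replicate 1 only 4 rose, and without untreated replicate 2 only 3. The chaperone *Hspa9* rose by 1.33 (SE 0.074) and was at 0.74 with quantile normalization and 0.041 with the spiked-in controls, while *Hspe1* and *Lonp1* rose by 0.89 and 0.82 and turned to −0.40 and −0.47 there. *Dele1* and *Oma1*, whose products relay mitochondrial stress to the integrated stress response, had log2 differences of −0.71 (SE 0.075) and −0.73 (SE 0.099), and the protease *Yme1l1* was at −1.03 (SE 0.077), or −0.29 with normexp. Among 6 proteases that cut the hormones or their relatives, *Pcsk5* rose by 0.74 but was at −0.55 with the spiked-in controls, *Furin* and *Pcsk6* were lower at −0.62 and −0.75, and *Fap*, which inactivates FGF21, had a log2 difference of −0.61 (SE 0.58) that did not pass.

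Downstream of the receptor stood 14 genes of FGF receptor signaling. Of all genes, 37.1% rose and 27.9% fell, or 28.5% and 31.2% with quantile normalization. Of the 14, 7 (50%) rose, 2 (14.3%) fell and 5 did not pass, with a median of 0.33. Only 2 rose and 1 fell when either untreated array was left out, and 5 rose and 7 fell with quantile normalization (median −0.20). Those that rose did so by between 0.36 and 0.81, and with the spiked-in controls all 14 genes fell, as did 83.4% of all genes. Among the 7, *Hras* was at 0.58 by its brightest probe and at −0.86 as the mean of its 3 probes. *Mapk3* and *Gab1* had 0.81 and 0.67, which turned to −0.48 and −0.61 with the spiked-in controls. *Sos1* was at −1.69 (SE 0.078), but at 0.042 with normexp background correction.

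Of 15 feedback and target genes of FGF signaling, 8 (53.3%) rose and 4 (26.7%) fell, beside 37.1% and 27.9% of all genes. Their median of 0.52 turned to −0.76 with the spiked-in controls. There 4 rose and 9 fell, beside 3.85% and 83.4% of all genes. *Dusp4* and *Dusp5*, phosphatases of MAP kinases, rose by 3.90 (SE 0.12, 15.0-fold) and 3.62 (SE 0.12, 12.3-fold), and the immediate early genes *Fos* and *Egr1* by 3.26 (SE 0.085) and 3.16 (SE 0.086). *Spry2* rose by 1.57 (SE 0.15). The 4 that fell were *Il17rd*, an inhibitor of FGF signaling, at −2.48 (SE 0.17), *Etv4* at −1.36, *Dusp6* at −1.17 and *Etv1* at −0.87. Several of these genes also answer to signals other than FGFs.

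Among relatives of *Fgf21*, 10 (66.7%) of 15 paracrine and intracellular FGFs tested rose and 2 (13.3%) fell, beside 37.1% and 27.9% of all genes. Their median of 0.98 turned to −0.31 with the spiked-in controls, where 4 rose and 8 fell. *Fgf5* rose by 2.88 (SE 0.23), or by 1.64 with normexp, *Fgf20* by 1.96 (SE 0.093), *Fgf6* by 1.72 (SE 0.097) and *Fgf2* by 1.63 (SE 0.089), while *Fgf12* and *Fgf1* were at −0.45 and −0.65. *Fgf3*, *Fgf4*, *Fgf16* and *Fgf17* were not well above background on any array. Of 14 relatives of *Gdf15* tested, 5 (35.7%) rose and 4 (28.6%) fell, close to the 37.1% and 27.9% of all genes, with a median of 0.12. With the spiked-in controls 4 of them rose and 10 fell. Both spiked-in counts stand beside 3.85% of all genes that rose and 83.4% that fell. The activin subunit *Inhba* rose by 3.60 (SE 0.11, 12.1-fold), *Gdf6* by 2.73 (SE 0.078), *Tgfb1* by 1.91 (SE 0.088) and *Gdf5* by 1.90 (SE 0.19), and *Tgfb3* was at −1.62 (SE 0.11). *Gdf2* and *Mstn* were not well above background on any array.

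Over all 10 lists without the 4 members, 133 genes were tested. Of these, 74 (55.6%) rose, 26 (19.5%, *Nr1h4* among them) were lower and 33 did not pass, beside 37.1% and 27.9% of all genes. This split depended on the scaling, with 66 and 34 under quantile normalization and 29 and 89 with the spiked-in controls. Of all genes tested, 28.5% rose and 31.2% fell under quantile normalization, and 3.85% rose and 83.4% fell with the spiked-in controls. The 7 list genes past both limits were all higher, and with the spiked-in controls each of them was under 10-fold, while *Eif2ak2*, *Il17rd* and *Ppara* were lower past both limits. *Nr1h4* passed them there only by values below background after OGD, which measure no fall. The lists were compared with all genes by counts and medians, and no set test was run.

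**Figure D4:**
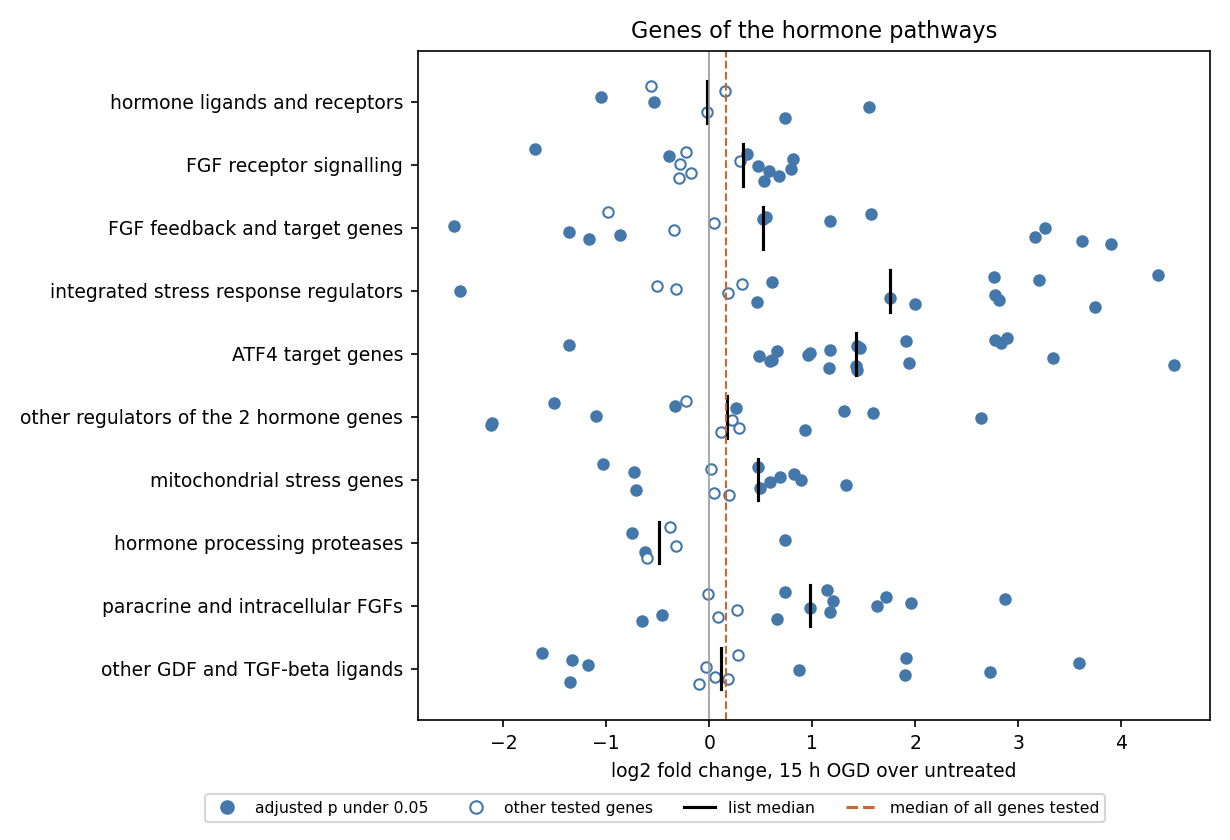
Log2 fold change, after 15 h of OGD over untreated and relative to the 75th percentile, of each tested gene of 10 lists without the 4 members. Filled circles passed an adjusted p under 0.05, black bars are list medians and the dashed line is the median of all genes tested, 0.16. ATF4 targets lie almost wholly to the right of it, with a median of 1.43, and the proteases have a median of −0.49.

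Genes with the most similar pattern to *Gdf15* over the 4 arrays were *Hk2*, *Vegfa*, *Errfi1*, *Myc* and *Pvr*, by the Euclidean distance between normalized log2 signals centered on each gene's own mean. Their distances ranged from 0.042 to 0.12, and their log2 differences from 3.49 to 3.62, beside 3.53 for *Gdf15*. No such genes are given for *Fgf21*, since its untreated values are surrogates and not a measured pattern. With 4 arrays in 2 groups, likeness of pattern is mainly likeness in the size of the difference.

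Markers of other cell types that AECs can hold were read on the same arrays. Microglial markers, of which 7 of 8 were tested, had summed levels of 1.80 and 1.5 in untreated AECs and 1.90 and 1.66 after OGD, and all 8 were well above background on at least 1 array. *Csf1r* and *Aif1* rose by 1.14 and 1.03, and *Trem2* and *Tmem119* fell by 0.93 and 0.88, on the log2 scale. Oligodendrocyte lineage markers had 24.6 and 24.8 against 20.0 and 18.6, with 3 of 10 that rose and 4 that fell, among them *Olig2* at −2.5. Neuronal markers had 31.0 and 29.0 against 31.0 and 34.1, with 3 of 7 that rose, *Nefl* by 1.95, and 2 that fell, *Syt1* at −0.60 and *Rbfox3*, which was well above background on only 2 of the 4 arrays. Fibroblast and vascular markers had 3.87 and 2.61 against 2.67 and 2.08, with *Cldn5* not well above background on any array. Astrocyte markers rose in 6 of 10 cases, and the other 4 did not pass the test, whereas all 10 differences were negative with the spiked-in controls and 7 of them passed. With that scaling all 7 microglial, all 10 oligodendrocyte lineage and all 5 fibroblast and vascular markers tested were negative too, as were 6 of 7 neuronal markers. Of all genes tested, 37.1% rose and 27.9% fell, and 83.4% fell with the spiked-in controls. The part of these markers in the values of *Fgf21* and *Gdf15* was not tested, and in these bulk samples a change in the number of cells of a type and a change in RNA per cell cannot be told apart.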

How the data were processed

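Total RNA of 4 AEC samples was labeled with Cy3 and hybridized to single-color Agilent mouse arrays by the authors. The deposited intensity per spot is the processed signal of Agilent Feature Extraction (version 11.5.1.1 in the submitters' processing notes), with background subtracted within each array, low values replaced by a surrogate and no normalization between arrays. The series table held the same values (largest difference 0). Samples were grouped by their labels. Probe positions are those of the file headers (mm9), and promoter windows are from RefSeq (GRCm38.p6), which held windows for 3 of the 4 members. Exons and introns at the probes were not analysed here.

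Control and outlier spots (119 to 132 per array) were left out, log2 values of repeated spots were averaged, and the 75th percentile of non-control probes was subtracted, as in the methods. A probe was kept if it had a value on every array and was well above background throughout 1 group or both. Untreated and OGD arrays were set against each other in limma 3.58.1 (lmFit, then eBayes) under R 4.3.3. Adjustment was by Benjamini–Hochberg over 28163 probes. The 21009 genes, each by its brightest probe, kept the adjusted p of that probe. Limits were an adjusted p of 0.05 and, for both limits, a fold of 10. An exact permutation test of a single value cannot go below p = 0.333 with 2 arrays a group. Arrays have no read depth, and precision rests on their number and the signal over background. The lower bound of a fold sets the mean of the bright group against the lowest signal well above background on each dim array. The steps were tested on simulated data, and Python 3.11.15 with pandas 2.3.3 and matplotlib 3.10.9 served for sequences and plots.

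The members and the gene lists were chosen with earlier results of these data known. Named were all members, list genes past both limits, up to 4 others per list with the largest change past the adjusted p limit, and the 5 genes nearest in pattern to *Gdf15* (those of *Fgf21*, also ranked, are left out because its untreated values are surrogates). *Atf4*, the cell type markers named, *Hras*, *Trp53*, *Fap*, *Ret*, *Dele1*, *Oma1*, *Thrb*, *Slc7a11*, the kinases of eIF2alpha, *Fgf1*, *Fgf12*, *Etv1*, *Etv4* and *Dusp6* were chosen after their values were seen. The alternatives comprised a fit blocked on the replicate number, a trended and robust limma prior, the methods' t-test, normexp, quantile, median, detected-probe percentile and spiked-in scaling, other filters, outlier spots kept, the series table, each array left out, probe means, and another floor. Spiked-in scaling of the *Fgf21* bound was chosen after seeing the data. A gene that the naming rule covers is not reported here. PCR and imaging experiments were not analysed here.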

Additional observations from a re-analysis of the deposited data

How the results depend on the processing

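*Gdf15* kept its direction under all 16 alternatives (log2 difference from 2.24 to 3.55), and the bound for *Fgf21* was 42.0-fold with the floor at the lowest percentile of bright probes, 21.2-fold with the spiked-in controls and from 47.8-fold to 56.3-fold with each array left out. For *Fgf21*, normexp with its offset of 50 gave a ratio of 8.94, which is no measured fold because the untreated spots were at background. *Klb* was at 1.05 with normexp and −1.13 with the spiked-in controls, and from −0.0097 to 0.32 with each array left out. The *Fgfr1* probe A_55_P1967022 stayed at 0.47 with the trend and robust prior, with median scaling and with the stricter filter. It was at 0.40 with normexp, at −0.82 with the spiked-in controls and from 0.30 to 0.64 with each array left out. Probe A_55_P2057777 was at −0.23 with quantile normalization, −1.07 with the spiked-in controls and from −0.068 to 0.50 with each array left out. Probe A_55_P1967015 stayed at 0.24 with the trend and robust prior, the methods' t-test and the stricter filter. It was at 0.25 with normexp, at 0.28 with quantile normalization and at −1.05 with the spiked-in controls. Where a value changed, the cause was not tested, except that the spiked-in scaling moves every probe by the same amount.

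Probes past both limits numbered 377, against 106 with normexp, 1227 with the spiked-in controls and 240 with only probes well above background on all 4 arrays, which tests fewer probes. Probes past the adjusted p limit numbered 18334, and from 10753 to 19152 with each array left out, with the lowest counts (11565 and 10753) without an untreated array. Of the list genes, 74 rose and 26 were lower in the main fit, against 29 and 89 with the spiked-in controls. The latter stand beside 3.85% and 83.4% of all genes, and the 7 past both limits, all higher, were all lost. The 4 that passed both limits there were other genes, all lower, and 1 of them, *Nr1h4*, was not well above background after OGD. With either untreated array left out, 53 list genes rose and 18 or 19 fell. Same-numbered arrays did not deviate together (r = −0.057), and with the replicate number as a block 17198 probes passed the adjusted p limit, 377 passed both limits, and 73 list genes rose and 26 fell.

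*Klb* and untreated *Fgf21* were near or at background, and the direction of *Klb* and of the *Fgfr1* probes was not settled across the scalings.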
